A study of Mus musculus with 6 samples.

Results

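The cytosolic ribosomal proteins are the protein subunits of the ribosomes that translate nuclear-encoded mRNA. Their transcripts were followed in mouse haematopoietic stem cells with and without induction of the leukaemia-associated fusion gene ETV6-RUNX1. Members were taken by symbol and gene type: protein-coding genes whose names give a numbered large (Rpl) or small (Rps) subunit protein, the stalk proteins Rplp0, Rplp1 and Rplp2, or Rpsa. The ribosomal S6 kinases and Rps19bp1 were left out. The rule gave 85 genes of 55471 gene IDs, 52 named for the large subunit and 33 for the small. Of these, 82 were tested, and Rpl10l, Rpl39l and Rpl3l were listed at 0 in every library.

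The data were 6 total-RNA libraries from sorted stem cells, defined by absence of lineage markers and CD48 and presence of Kit, Sca1 and CD150. Every library carried the genotype ETV6-RUNX1. The 3 uninduced libraries came from mice without doxycycline, and the 3 induced libraries from mice fed doxycycline for 2 weeks. There was no comparison with doxycycline-fed mice that lack the fusion, so induction and the drug cannot be told apart. The labels give 3 replicates per group but no age, sex, promoter or founder line. They also do not say whether replicates were separate animals or pools, so p-values measure the spread between these libraries.

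Each ribosome is built from a small subunit, which reads the mRNA, and a large subunit, which joins amino acids, and each subunit holds many different proteins in single copies. Most ribosomal protein mRNAs begin at a cytosine followed by a run of pyrimidines, the terminal oligopyrimidine or TOP motif, through which mTOR and the RNA-binding protein Larp1 control their translation together. Haematopoietic stem cells are known for a low rate of protein synthesis, and loss of a single copy of several ribosomal protein genes causes Diamond-Blackfan anaemia, a failure of red cell production.

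RefSeq annotation of GRCm38.p6 gave start sites for 65 of the 85 members, in 77 windows of 300 bases. The windows below run from 15 bases before to 15 bases after a start, 5′ to 3′ on the gene's strand, with the pyrimidine run in capitals. They are shown because they cover the members that stood highest and several of those that fell most in induced cells. Rps27 lies at chr3:90213634-90213663, minus strand; Rps27rt at chr9:114982725-114982754, minus strand; Rpl28 at chr7:4792950-4792979, plus strand. Rps26 lies at chr10:128626492-128626521, minus strand, and Rps6 at chr4:86857353-86857382, minus strand. For Rpl15 the window is chr14:18270972-18271001, minus strand, and for Rplp0, which has no run, chr5:115559452-115559481, plus strand.
Rps27: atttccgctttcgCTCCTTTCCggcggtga
Rps27rt: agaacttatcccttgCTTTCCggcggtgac
Rpl28: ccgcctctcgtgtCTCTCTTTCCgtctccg
Rps26: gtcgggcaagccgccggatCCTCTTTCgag
Rps6: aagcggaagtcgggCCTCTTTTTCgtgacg
Rpl15: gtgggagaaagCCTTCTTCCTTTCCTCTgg
Rplp0: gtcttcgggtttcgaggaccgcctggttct

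The run was defined as a C followed by at least 4 more C or T, beginning within 5 bases of the annotated start on the gene's strand. It was present in 32 of the 77 member windows, or 41.6%, against 18.35% of 32851 start windows of all genes. Members with and without a run so defined are both found among the genes that fell. Rpl28, Rps26 and Rps6 had one, and the windows of Rplp0, Rpl4 and Rpsa had none. The Rpl4 window does hold a run of C and T, more than 5 bases before the annotated start. The definition depends on that start, so a missing run does not show that an mRNA lacks a TOP motif. In the full windows of 300 bases, searched on both strands, the ETS core CCGGAAG was present in 35.1% of member windows and 8.86% of all windows. The RUNX core TGTGGT was present in 9.09% and 16.8%, the GC box GGGCGG in 59.7% and 35.7%, and the E box CACGTG in 10.4% and 7.15%. The DNA-binding domain of the fusion is the RUNX domain, supplied by RUNX1. These matches describe the sequence only, and no binding was measured.

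Rps27 and Rps27rt need a second set of sequences, because their reads can hardly be separated. Rps27 is a spliced gene of 4 exons at chr3:90212522-90213651 (GRCm38, GENCODE M21), and Rps27rt is a single-exon gene at chr9:114982366-114982739. Both are annotated as protein-coding, and over 252 bases their coding sequences were identical. Of all stretches of 100 bases in the Rps27 transcript, 98.4% also occurred in that of Rps27rt. The paralogue Rps27l, at chr9:66946086-66949516, differed from Rps27 at 60 coding positions, shown in capitals, and shared no stretch of 100 bases with any other gene. The coding sequences, from GENCODE M21 transcripts, read as follows.
Rps27: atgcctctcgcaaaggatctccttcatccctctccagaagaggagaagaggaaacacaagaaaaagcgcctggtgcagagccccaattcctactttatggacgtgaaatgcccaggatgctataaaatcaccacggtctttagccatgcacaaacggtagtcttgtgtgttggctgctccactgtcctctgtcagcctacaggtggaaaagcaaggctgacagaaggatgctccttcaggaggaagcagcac
Rps27l: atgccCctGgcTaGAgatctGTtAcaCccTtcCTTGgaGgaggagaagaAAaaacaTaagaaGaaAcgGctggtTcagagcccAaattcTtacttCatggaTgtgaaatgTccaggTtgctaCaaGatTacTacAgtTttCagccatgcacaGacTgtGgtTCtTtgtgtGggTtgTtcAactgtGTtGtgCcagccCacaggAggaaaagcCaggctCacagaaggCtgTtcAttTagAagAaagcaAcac

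The values are TPM, which corrects for gene length and sums to a fixed total per library, and the depth behind them is unknown. The deposited scale was offset between the groups: the median log2 change of 13470 tested genes was -0.35, and 0.0032 after median-of-ratios scaling, which divides each library by its median ratio to the other libraries. The main counts and values are therefore given on both scales. Several marker lists also differed between the groups. Of all tested genes 10.2% were lower and 1.29% higher by limma on the deposited scale, and 3.10% and 2.88% after scaling. The 12 proliferation markers summed to 392 to 456 TPM in uninduced and 83.7 to 116 TPM in induced libraries, with 10 of 12 lower on the deposited scale and 9 after scaling. The 13 erythroid markers summed to 402 to 483 and 657 to 760 TPM, with 7 higher and 1 lower of 11 tested, and 7 higher after scaling. The stem cell markers of the gate summed to 530 to 681 and 586 to 647 TPM, with 3 higher and 2 lower of 10 tested (4 and 1 after scaling). B lymphoid markers summed to at most 9.86 TPM, with Cd79a, Ebf1 and Pax5 at 0, and T and NK markers to 8.22 to 31.7 TPM in uninduced and 0.601 to 7.43 TPM in induced libraries. Of the latter list Cd3d, Cd3e, Cd3g and Cd8a were at 0, Lck overlapped between the groups, and Nkg7, singled out after its values were seen, was at 6.21, 15.8 and 5.84 TPM in uninduced libraries and listed at 0 in the induced ones (limma adjusted p 0.00378, and 0.00585 after scaling). Endothelial and stromal markers summed to 24.8 to 37.0 and 39.9 to 48.6 TPM, without overlap, and 1 of 4 tested was higher, after scaling only. Megakaryocyte markers summed to 103 to 139 and 120 to 131 TPM, with 2 higher and 1 lower of 6 tested (2 higher after scaling). Granulocyte and monocyte markers summed to 288 to 353 and 271 to 314 TPM, with 1 higher and 1 lower of 9 (2 higher after scaling). Both sums overlapped between the groups. The part of these marker differences in the results below was not tested.

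Ribosomal protein mRNA took a smaller share of the library in induced cells. The 85 members summed to 57117, 63931 and 50256 TPM in uninduced libraries 1, 2 and 3, and to 37425, 35654 and 39771 TPM in induced libraries 1, 2 and 3. The group means were 57101 ± 6838 and 37617 ± 2065 TPM (SD, n = 3), and the groups did not overlap. In bulk RNA such a difference cannot tell fewer cells that make a transcript from less of it in each cell.

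The same direction appeared within the nuclear protein-coding genes, where the offset of the library scale cancels. Members held 19.1%, 19.4% and 18.9% of nuclear protein-coding TPM in uninduced libraries 1, 2 and 3, and 17.0%, 17.4% and 17.1% in the induced libraries. Means were 19.2% ± 0.282 and 17.2% ± 0.178 (SD, n = 3), a difference of -1.99 percentage points, with no overlap. The balance of the summed subunits was similar in the groups. The ratio of small to large subunit TPM was 0.664 ± 0.0225 in uninduced and 0.672 ± 0.0221 in induced libraries (SD, n = 3), with overlapping values. Whether the subunits differed was not tested.

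**Figure D1:**
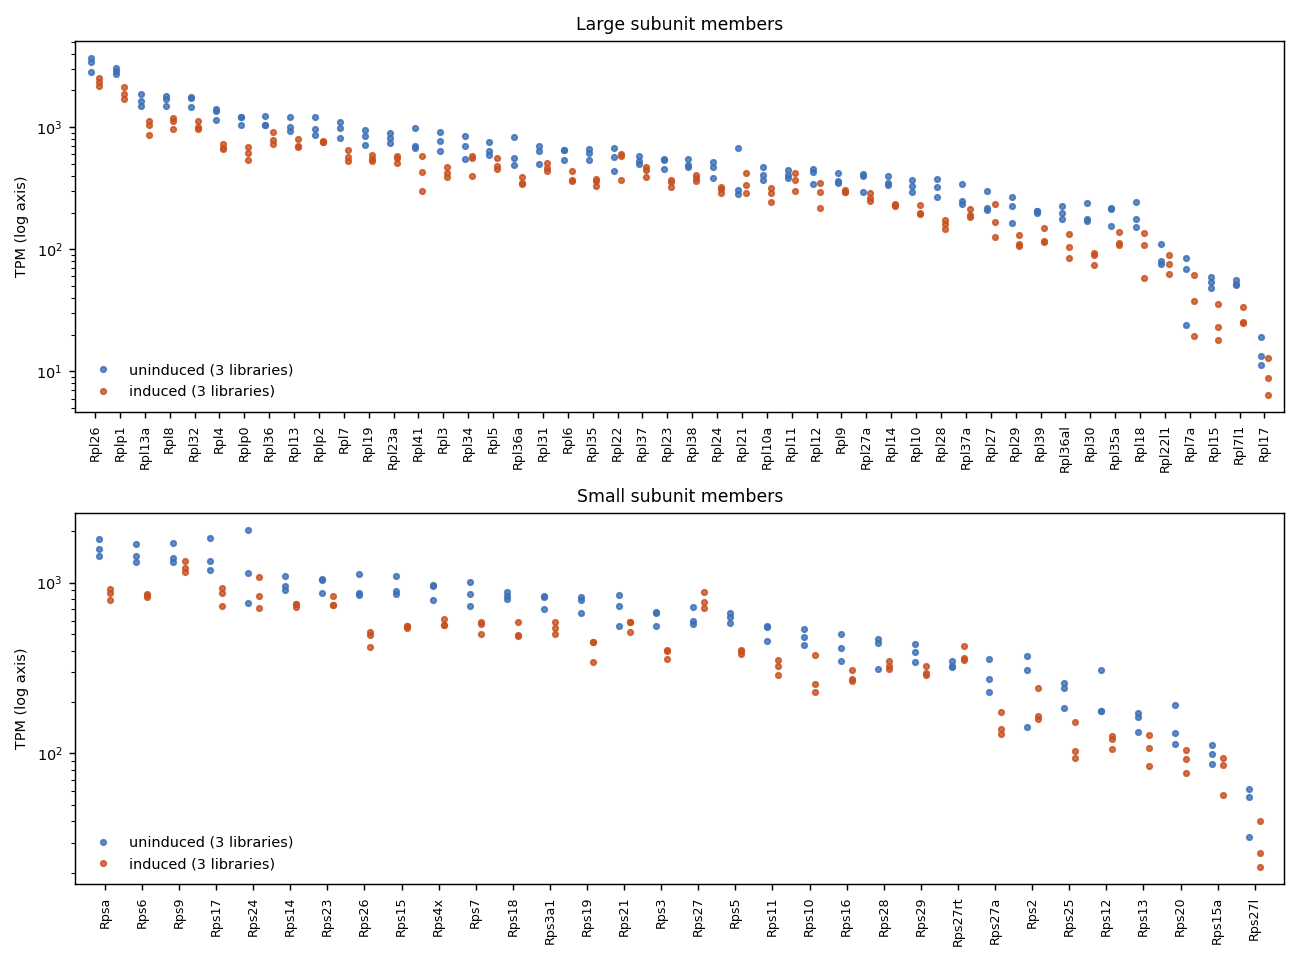
TPM (log axis) of 80 tested members in every library, large subunit genes above and small subunit genes below, ordered by mean level, with 1 point per library. For 61 members all 3 induced points lie below all 3 uninduced points, and for Rps27rt all lie above.

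Gene by gene, 48 of the 82 tested members were lower in induced cells and none was higher, by limma on log2(TPM + 1) with Benjamini-Hochberg adjustment over all tested genes at 0.05. That is 58.5% of members, where 10.2% of all tested genes were lower and 1.29% higher. At an unadjusted limma p under 0.05, in either direction, there were 66 members and 3762 of the 13470 tested genes. Estimated log2 changes were below 0 for 80 of 82 members, with a median of -0.62 and quartiles of -0.77 and -0.46. Relative to the median of all genes the members' median was -0.27, and 71 members lay below that median and 11 above.

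How many single genes passed depended on the fit. On the deposited scale 2 of 82 members were lower without a variance trend, where 659 of 13470 tested genes were. Without an expression filter 17 members were lower, where 656 of 23013 tested genes were. After median-of-ratios scaling, 8 members were lower, among them Rpl28, Rpl30, Rpl4, Rplp0, Rps26, Rps6 and Rpsa, and 2 were higher, Rps27 and Rps27rt. The 8 are 9.76% of members, against a background of 3.10% lower and 2.88% higher. All 8 were also lower on the deposited scale. The members' median was then -0.22, and 19 of 82 members had a log2 change above 0, as also after rescaling to nuclear protein-coding genes (19) and fewer after quantile normalization (9). Leaving out 1 library also moved the deposited count, to 46 without uninduced library 3, 33 without uninduced 1 and 29 without induced 3. It was 25 without uninduced 2, 20 without induced 1 and 12 without induced 2. In the same order 1146, 739, 835, 637, 694 and 527 of all tested genes were lower, of 13384 to 13557 tested. Of the 21 members named by rule that were called lower, 8 kept the call without any of the 6 libraries, among them Rpl28, Rpl30, Rplp0, Rps19, Rps26, Rps6 and Rpsa. The other 13 lost it in at least 1 such fit.

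**Figure D2:**
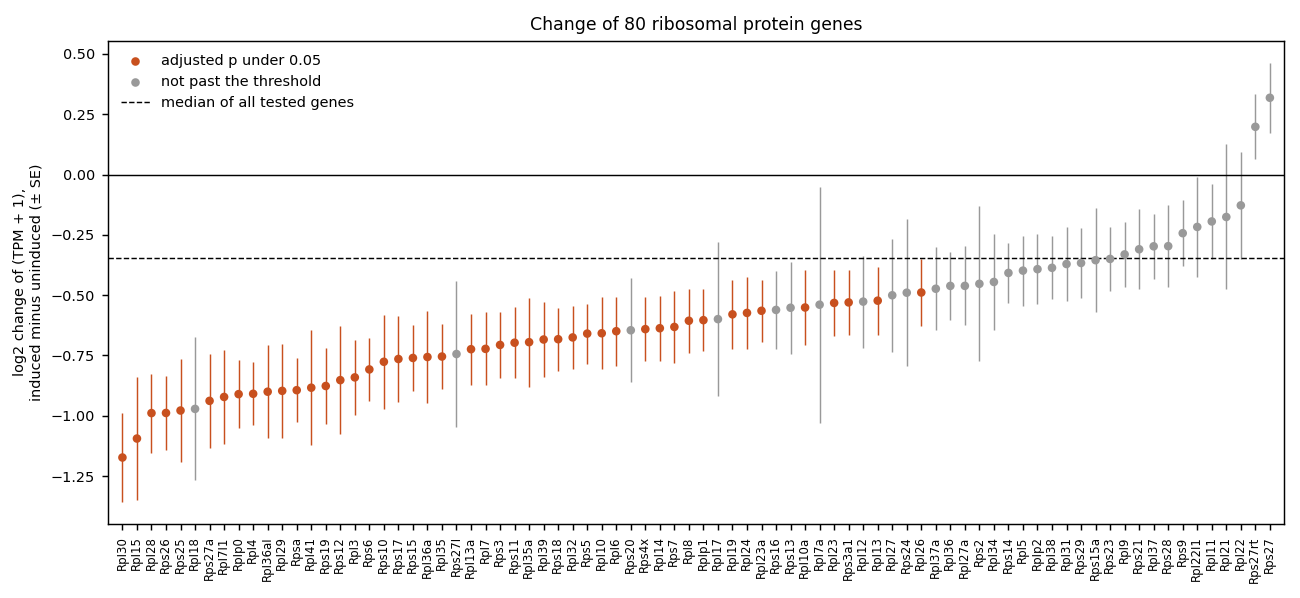
Log2 change of 80 tested members, induced minus uninduced, on the deposited scale, in order of size, with bars for the standard error, colour for an adjusted p under 0.05 and a dashed line at the median of all tested genes. Of these, 78 lie below 0, and Rps27 and Rps27rt lie above.

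**Figure D3:**
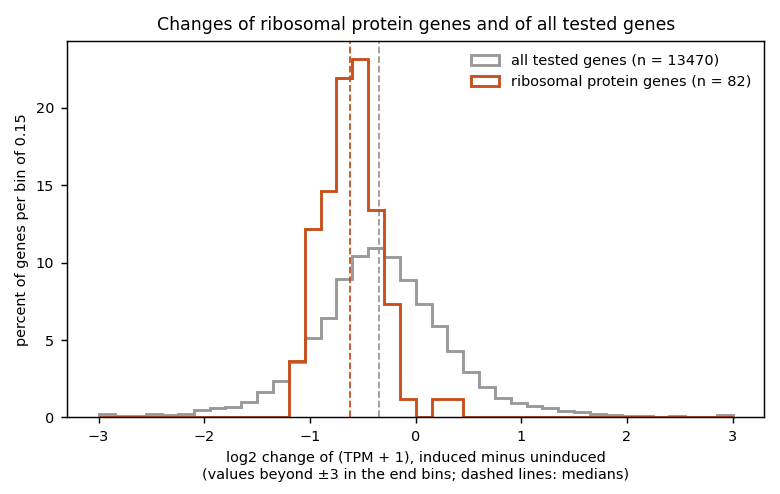
Distribution of log2 changes on the deposited scale for all 13470 tested genes and for the 82 members, as percent of genes per bin, with dashed lines at the medians. The members' median is -0.62 and that of all genes -0.35.

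Separation of the libraries gave a similar picture. On the deposited scale 63 members had every induced value below every uninduced value, 76.8% of members against 28.2% of all tested genes. Rps27rt alone had the reverse order, where the background was 4.83%, and 18 members overlapped. After median-of-ratios scaling 36 members were separated downwards and 2 upwards, against a background of 14.3% and 13.6%.

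Among the large subunit genes, 30 of 49 tested were lower, against 10.2% of all tested genes, with a median log2 change of -0.60. After scaling 4 were lower, against 3.10%, with a median of -0.20. Rpl30, a large subunit protein, changed most of all members. It was at 178, 240 and 171 TPM in uninduced libraries and at 73.9, 89.8 and 93.7 TPM in induced libraries, which is -1.17 ± 0.18 on the log2 scale (SE, limma adjusted p 0.00491). Rpl30 stayed lower after median-of-ratios scaling, at -0.77 (limma adjusted p 0.0215). Its 11 pseudogenes differed less, with 316 TPM summed in uninduced and 253 TPM in induced cells. Rpl30 held 33.1% of the TPM of this sequence family, and the family as a whole changed by -0.59 (limma adjusted p 0.0349), or -0.18 after scaling (limma adjusted p 0.292).

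Rpl28, also of the large subunit, was at 320, 376 and 267 TPM in uninduced and 160, 147 and 174 TPM in induced libraries. Its log2 change was -0.99 ± 0.16 (SE, limma adjusted p 0.0061), and -0.58 after scaling (limma adjusted p 0.0183). The groups were well apart, and summing Rpl28 with its pseudogenes left the change at -1.02. Rpl15 was a weakly expressed member at 58.8, 54.0 and 48.4 TPM, against 18.0, 23.1 and 35.5 TPM. Its change of -1.09 (limma adjusted p 0.024) missed the threshold after scaling (-0.70, limma adjusted p 0.115) and without any of 4 of the 6 libraries (limma adjusted p 0.0676 to 0.088). Rpl15 held 30.1% of the TPM of its family, and summed with its pseudogenes it was lower on both scales (-0.99, limma adjusted p 0.00477; -0.59 after scaling, limma adjusted p 0.0226).

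Rpl4, chosen after its values were seen because it passed on both scales, was at 1353, 1404 and 1138 TPM and then at 671, 663 and 733 TPM (-0.91, limma adjusted p 0.00405; -0.50 after scaling, limma adjusted p 0.0122). Only 5.14% of the 100-base stretches of Rpl4 occur in another gene, and summing it with its pseudogene left the change at -0.91.

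The stalk of the large subunit, a flexible arm that recruits and activates elongation factors, is made of Rplp0 at the base and of Rplp1 and Rplp2. Rplp0 was at 1219, 1219 and 1031 TPM in uninduced and 618, 538 and 693 TPM in induced libraries, a change of -0.91 (limma adjusted p 0.00491) and of -0.50 after scaling (limma adjusted p 0.0145). Rplp1, one of the most abundant members, went from 2864, 3068 and 2716 to 1884, 1691 and 2133 TPM, a change of -0.60 (limma adjusted p 0.0176), with -0.20 after scaling (limma adjusted p 0.194) and no call without induced library 1 or 2 (limma adjusted p 0.0695 and 0.0838). Rplp2 was at 963, 1207 and 858 against 769, 752 and 762 TPM, which did not pass (-0.39, limma adjusted p 0.114; 0.016 after scaling). The groups did not overlap for any of the stalk genes on the deposited scale. Whether the 3 stalk genes differed from one another was not tested.

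Among the small subunit genes, 18 of 33 were lower, against 10.2% of all tested genes, with a median of -0.65. After scaling 4 were lower and 2 higher, against 3.10% and 2.88%, with a median of -0.24. Rps26, at the mRNA exit of the small subunit, was at 850, 1128 and 867 and then at 512, 419 and 495 TPM (-0.99, limma adjusted p 0.00491; -0.58 after scaling, limma adjusted p 0.0193). The groups of Rps26 were well apart on both scales.

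Rps25, known for its role in initiation at viral internal entry sites, was at 257, 241 and 184 TPM and at 94.5, 103 and 153 TPM. Its change of -0.98 (limma adjusted p 0.0187) became -0.57 after scaling (limma adjusted p 0.0853) and missed the threshold without any of 4 of the libraries (limma adjusted p 0.0616 to 0.0793). Rps27a, made as a fusion with ubiquitin, was at 358, 230 and 272 and at 130, 139 and 174 TPM. It changed by -0.94 (limma adjusted p 0.0155), by -0.53 after scaling (limma adjusted p 0.139), and missed the threshold without induced library 1 or 2 (limma adjusted p 0.0615 and 0.0665). Rps25 and Rps27a were separated between the groups on the deposited scale.

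Rps6 is the small subunit protein phosphorylated by the S6 kinases downstream of mTOR. Its mRNA was at 1442, 1690 and 1328 TPM in uninduced and 825, 858 and 851 TPM in induced libraries (-0.81, limma adjusted p 0.00549; -0.40 after scaling, limma adjusted p 0.0388). Rpsa, whose mutation causes congenital absence of the spleen in people, was at 1584, 1794 and 1426 and then at 865, 796 and 915 TPM (-0.89, limma adjusted p 0.00431; -0.49 after scaling, limma adjusted p 0.0121). For both genes the induced libraries lay close together and far below the uninduced ones.

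Members tied to blood disease include some that fell and some that did not pass. Of 22 genes mutated in Diamond-Blackfan anaemia, 10 were lower on the deposited scale, with a median of -0.55, and after scaling 1 was lower and 1 higher. The background was 10.2% lower on the deposited scale, and 3.10% lower and 2.88% higher after scaling, so the scaled counts are near it. Rps19, the gene most often mutated in that disease, was at 820, 790 and 662 against 343, 447 and 451 TPM, a change of -0.88 (limma adjusted p 0.00805) that did not pass after scaling (-0.47, limma adjusted p 0.0732). Summed with its pseudogenes Rps19 was lower on both scales (-0.80, limma adjusted p 0.00666; -0.40 after scaling, limma adjusted p 0.0427). Rps14, whose loss of a copy marks a form of myelodysplastic syndrome, was at 957, 1093 and 905 against 753, 718 and 748 TPM. Rps14 did not pass (-0.41, limma adjusted p 0.0641), and its value after scaling was 0.00016.

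Rpl5 and Rpl11, which bind Mdm2 outside the ribosome and so stabilise p53, did not pass on either scale. Rpl5 changed by -0.40 (limma adjusted p 0.107; 0.0095 after scaling), and Rpl11 was at 442, 407 and 386 against 423, 366 and 299 TPM (-0.19, limma adjusted p 0.455; 0.21 after scaling). Both are examples of members whose sign depends on the scale. Rpl22, deleted in some T-cell leukaemias, was at 568, 680 and 436 against 367, 605 and 580 TPM, with overlapping groups (-0.13, limma adjusted p 0.75; 0.28 after scaling). Rpl10, mutated in T-cell leukaemia, fell from 293, 328 and 367 to 232, 198 and 195 TPM (-0.66, limma adjusted p 0.0221), with -0.25 after scaling (limma adjusted p 0.403). It missed the threshold without any of 4 of the libraries (limma adjusted p 0.053 to 0.0879). Rpl38, needed for axial patterning in mouse embryos, was at 470, 550 and 486 against 402, 365 and 382 TPM and did not pass (-0.39, limma adjusted p 0.0856; 0.021 after scaling).

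The most abundant member, Rpl26, was at 3391, 3706 and 2810 TPM in uninduced and 2354, 2157 and 2514 TPM in induced libraries (-0.49, limma adjusted p 0.0478; -0.081 after scaling). Rpl8 (-0.61, limma adjusted p 0.0196) and Rpl32 (-0.68, limma adjusted p 0.0118) were lower on the deposited scale, with -0.20 and -0.27 after scaling. Without some single libraries Rpl26 (5 of 6, limma adjusted p 0.0867 to 0.174), Rpl8 (3 of 6, 0.0549 to 0.0901) and Rpl32 (induced 1 or 2, 0.0525 and 0.0604) missed the threshold. Rps9 overlapped between the groups (-0.24, limma adjusted p 0.286; 0.17 after scaling). At the other end of the range, Rpl17 was the lowest tested member at 11.3, 19.2 and 13.3 against 8.90, 6.43 and 12.9 TPM (-0.60, limma adjusted p 0.256). Rpl17 held only 2.13% of the TPM of its family of 28 pseudogenes, which summed with it to 587 to 744 TPM in uninduced and 440 to 511 TPM in induced libraries. How the authors' counting divided reads among them was not tested. Mean TPM spanned 12.0 to 2822 over the tested members, 11 of them above 1000 and 7 below 100.

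Rps27 and Rps27rt went against the other members. Rps27, a zinc-finger protein of the small subunit, was at 596, 722 and 571 TPM in uninduced and 765, 707 and 880 TPM in induced libraries (0.32 ± 0.15 SE, limma adjusted p 0.186). On the deposited scale the groups overlapped and Rps27 did not pass. After median-of-ratios scaling its values were 496, 567 and 540 against 861, 857 and 934, a change of 0.73 (limma adjusted p 0.00418). Rps27rt was at 345, 320 and 325 against 362, 425 and 353 TPM (0.20, limma adjusted p 0.377). Scaled, it was at 288, 252 and 307 against 407, 515 and 375, a change of 0.61 (limma adjusted p 0.0406), which missed the threshold under quantile normalization (limma adjusted p 0.0526). On the scaled values neither gene overlapped between the groups.

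Because reads of the near-identical pair can go to either gene, their sum is the safer measure. Summed with the related pseudogenes, the family was at 944, 1043 and 897 TPM in uninduced and 1130, 1134 and 1237 TPM in induced libraries. The change was 0.28 (limma adjusted p 0.165) on the deposited scale and 0.68 (limma adjusted p 0.00287) after scaling. All 3 induced sums exceeded all 3 uninduced sums.

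As shares of the ribosomal protein pool the pair stood apart more clearly. Rps27 made up 1.04%, 1.13% and 1.14% of member TPM in uninduced libraries and 2.04%, 1.98% and 2.21% in induced libraries, a ratio of means of 1.89. Rps27rt made up 0.605%, 0.501% and 0.646% and then 0.967%, 1.19% and 0.889%, a ratio of 1.74. These shares do not depend on the scale of the library. Of the other members without overlap the highest were Rps9, with a ratio of 1.28, and Rpl37, with 1.23. Rpl22, Rpl11, Rpl21 and Rpl22l1 had ratios of 1.30 to 1.41 with overlapping groups. In all, 13 members had a higher and 11 a lower share without overlap, and the other tested members overlapped. These counts have no share over all genes beside them, because pool shares were taken for members only. Shares in a library sum to a fixed total, so some must fall where others rise. At the low end stood Rpl30 at 0.668, and the others with a lower share included Rpl28, Rps26, Rplp0, Rpl4, Rpsa and Rps6.

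**Figure D4:**
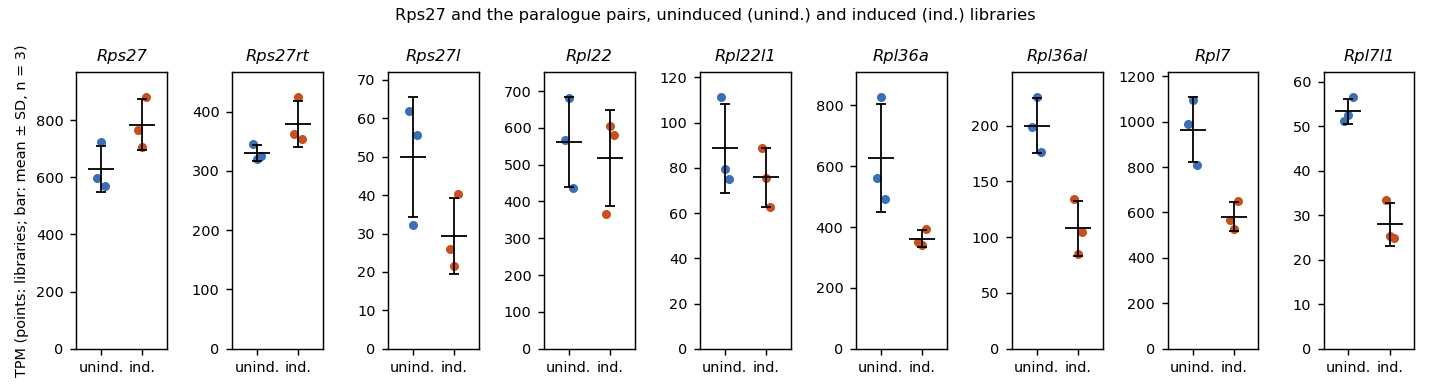
TPM of Rps27, Rps27rt and the paralogue pairs in each library, as points, with the group mean and SD as bars, each gene on its own axis from 0. Rps27 stands at 571 to 722 TPM in uninduced and 707 to 880 TPM in induced libraries, while Rps27l stands at 32.2 to 61.9 and 21.5 to 40.4 TPM.

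Apart from these, the order of members within the pool was largely kept. The 10 most abundant members held 32.8% of the pool in uninduced and 31.7% in induced cells on average, and 9 of the 10 were in both sets. Across 82 members the Spearman correlation of mean shares between the groups was 0.972. It was 0.963 to 0.977 between libraries of a group and 0.947 to 0.966 between libraries of different groups. Members share each library's processing, so these values describe similarity only.

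The paralogues are copies of canonical ribosomal protein genes, several of which are used in particular tissues. The testis-linked Rpl10l and Rpl39l and the muscle-linked Rpl3l were listed at 0, and 5 pairs could be compared by the ratio within a library, with an exact two-sided permutation test. With 3 libraries against 3 this test cannot go below 0.1, so no pair could pass. Rps27l, a p53-responsive copy of Rps27, was at 61.9, 32.2 and 55.5 against 25.9, 21.5 and 40.4 TPM (limma adjusted p 0.141). Its log2 ratio to Rps27 differed by -1.06 (exact permutation p 0.2, adjusted over the pairs 0.5). The ratio was 4.46% to 10.4% in uninduced and 3.05% to 4.58% in induced libraries, and these ranges overlapped.

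Rps4l, typed as a pseudogene in the table and so not a member, stood at 0.419% to 1.36% of Rps4x in uninduced and at 1.38% to 1.74% in induced libraries, without overlap (0.83 on the log2 scale, exact permutation p 0.1, adjusted 0.5). The ratio rests on a gene of low level, and the test of it could not pass. Rpl7l1, a large subunit paralogue, fell from 51.2, 52.4 and 56.5 to 33.5, 25.4 and 24.9 TPM (-0.92, limma adjusted p 0.0173; -0.52 after scaling, limma adjusted p 0.156). Its partner Rpl7 fell too (-0.72, limma adjusted p 0.0163; -0.31 after scaling, limma adjusted p 0.0826), and the log2 ratio differed by -0.20 (exact permutation p 0.5). Both missed the threshold without induced library 2, Rpl7l1 also without induced 3 and Rpl7 without induced 1 (limma adjusted p 0.0584 to 0.0755).

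Rpl36al and Rpl36a were both lower on the deposited scale, at -0.90 (limma adjusted p 0.018; -0.49 after scaling, limma adjusted p 0.106) and -0.76 (limma adjusted p 0.0326; -0.35 after scaling, limma adjusted p 0.186). Rpl36a held 43.0% of its family's TPM, and the family was lower on both scales (-0.90, limma adjusted p 0.0105; -0.50 after scaling, limma adjusted p 0.0309). The pair's log2 ratio differed by -0.14 (exact permutation p 0.6). Rpl36al missed the threshold without any of 3 libraries and Rpl36a without any of 5 (limma adjusted p 0.0542 to 0.115). Rpl22l1, the copy that can stand in for Rpl22, was at 111, 79.6 and 75.2 against 89.0, 75.6 and 62.7 TPM (-0.22, limma adjusted p 0.535). Its log2 ratio to Rpl22 differed by -0.089 (exact permutation p 0.9), and the sign turned when uninduced library 1 (0.064), induced library 2 (0.034) or induced library 3 (0.14) was left out.

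Ribosomal protein genes have many processed pseudogenes, intronless copies that short reads may fit as well as the parent gene. Of the 82 tested members, 76 shared at least one stretch of 100 bases, the read length, with a transcript of another gene, and the median share of such stretches was 36.8%. By shared sequence 707 pseudogenes were assigned to members, 374 of them with at least 1 TPM. They held 32.1%, 31.7% and 33.2% of the summed family TPM in uninduced libraries and 33.6%, 32.6% and 33.4% in induced libraries, so the division of reads between genes and pseudogenes was similar in all 6.

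Summing each member with its pseudogenes, an alternative chosen after seeing the data, gave 53 lower of 81 families, where 10.2% of all features in that fit were lower and 1.33% higher. All 48 earlier calls were kept, and Rpl18, Rpl31, Rps16, Rps20 and Rps29 were added. After median-of-ratios scaling 10 families were lower and 1, that of Rps27, was higher, against 3.28% and 2.96% of all features. Of the single genes called lower on that scale Rpl30 was lost, and Rpl15, Rps19 and Rpl36a were added. The 32 members that shared at least 50% of their stretches had 21 lower and a median of -0.64, and after scaling 2 lower and 2 higher. Of 6 tested members that shared none, 3 were lower, with a median of -0.67, and by limma none passed after scaling, where 3 had an unadjusted p under 0.05. The shares over all tested genes were 10.2% lower, and 3.10% lower and 2.88% higher after scaling. On the scaled values 2932 of 13470 tested genes had an unadjusted limma p under 0.05. In all 73 families whose pseudogenes summed to at least 10 TPM, the pseudogene sum was lower in induced cells, with a median log2 change of -0.56.

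**Figure D5:**
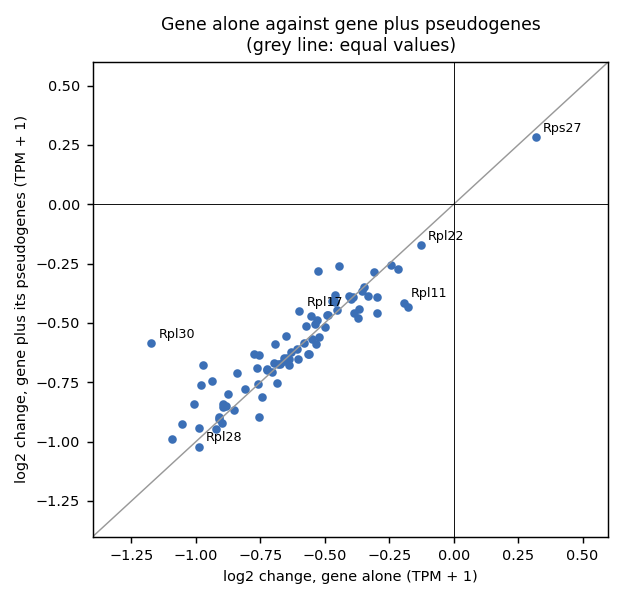
Log2 change of each member alone (horizontal axis) and of the member summed with its pseudogenes (vertical axis), deposited scale. Most points lie near the diagonal. Rpl30 is at -1.17 alone and -0.59 as a family, and the Rps27 family remains above 0.

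None of 5 properties of the genes followed the members' changes closely. Across 82 members the Spearman correlation with the log2 change was 0.060 for log2 mean TPM, -0.22 for transcript length, -0.13 for exon number, -0.15 for the gene's GC content and 0.026 for the percentage of shared stretches. With the log2 change of the family's pseudogenes it was 0.33, over 73 members. Many ribosomal protein genes carry small nucleolar RNAs in their introns. The 30 members that hold such a gene had 18 lower and a median of -0.62, and the 52 tested members that hold none had 30 lower and a median of -0.62, against 10.2% lower of all tested genes. After scaling the hosts had 4 lower, and the others 4 lower and 2 higher, against 3.10% and 2.88%. Rpl4, which holds 5 snoRNA genes, and Rpl28, which holds none, were lower on both scales.

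The spread between replicates differed between members. The median coefficient of variation was 13.4% over uninduced and 10.2% over induced libraries, and 5 members exceeded 40% in the uninduced group. These included Rpl7a at 53.4%, Rpl21 at 52.6%, Rps24 at 49.9% and Rps2 at 43.4%, named here for their spread. Uninduced library 2 was the highest of its group for 56 of 82 members, and induced library 2 the lowest of its group for 47. Many members thus had the same libraries at the top and bottom of their groups on the deposited scale.

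Of the ribosome's partners outside the naming rule, Rack1, a scaffold on the small subunit, was lower (-0.71, limma adjusted p 0.0202; -0.30 after scaling, limma adjusted p 0.125). Fau, a ubiquitin-like protein fused to a small subunit protein, was at 844, 1105 and 778 against 1069, 782 and 889 TPM (0.011, limma adjusted p 0.975), and its sign turned when uninduced library 1 or 3 or induced library 1 was left out. Rack1 missed the threshold when any library other than uninduced 3 was left out (limma adjusted p 0.0521 to 0.0842).

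Translation factors and other TOP mRNAs were lower in part. Of 157 genes in 8 lists of ribosome and translation genes, 151 were tested, 47 were lower and 2 higher, with a median of -0.64, where 10.2% of all tested genes were lower and 1.29% higher. After median-of-ratios scaling 17 were lower and 3 higher, against a background of 3.10% and 2.88%. On the deposited scale the count of lower genes was 23 to 27 without any single library other than uninduced 3. Among 27 other TOP mRNAs 17 were lower (median -0.65) and, after scaling, 5 lower and 1 higher, led by Npm1, a nucleolar chaperone of ribosome assembly, at 514, 533 and 433 against 207, 169 and 230 TPM. Npm1 changed by -1.29 (limma adjusted p 0.00212) and by -0.88 after scaling (limma adjusted p 0.00316). Pabpc1, the poly(A)-binding protein, changed by -1.07 (limma adjusted p 0.00252) and by -0.66 after scaling (limma adjusted p 0.0106). Nap1l1, a histone chaperone, changed by -1.05 (limma adjusted p 0.0125; 0.0575 without induced library 2) and did not pass after scaling (-0.65, limma adjusted p 0.0643).

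Of 13 elongation and recycling factors 6 were lower (median -0.71), and 3 after scaling, with Abce1, which splits terminated ribosomes, at 45.0, 48.6 and 48.5 against 15.1, 18.0 and 16.3 TPM (-1.47, limma adjusted p 0.00265; -1.08 after scaling, limma adjusted p 0.0145). Eif5a, which helps ribosomes past stalling sequences, and Eef1g, of the complex that reloads elongation factor with GTP, changed by -0.93 and -0.92, and both by -0.52 after scaling (limma adjusted p 0.0343 and 0.0236). Of 41 initiation factors 17 were lower (median -0.70), and 5 after scaling. Beside these lists, 10.2% of all tested genes were lower on the deposited scale and 3.10% after scaling. Eif3b (-1.10; -0.70 after scaling) and Pabpc4 (-1.37; -0.98 after scaling) passed on both scales. Of 31 tested chaperones and importers of ribosomal proteins 9 were lower (median -0.72), and 4 after scaling, with Grwd1 at -1.89 (limma adjusted p 0.012), Ipo5 at -1.33 (limma adjusted p 0.0045) and Bysl at -1.33 (limma adjusted p 0.0447), the last lost without any library but uninduced 3 (limma adjusted p 0.0867 to 0.133). After scaling Grwd1 (-1.52, limma adjusted p 0.0318) and Ipo5 (-0.93, limma adjusted p 0.02) passed and Bysl did not (-0.99, limma adjusted p 0.119).

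Among the regulators of TOP mRNAs and mTOR, 3 of 29 were lower and 1 higher, a share of lower genes near the 10.2% of all tested genes, and after scaling Sesn1 alone passed. Their median was -0.33, beside -0.35 for all genes. Larp1, the TOP-binding protein, was at 44.1, 30.8 and 36.0 against 19.96, 18.3 and 17.5 TPM (-0.94, limma adjusted p 0.0227; -0.55 after scaling, limma adjusted p 0.173). Larp4 (-0.96) and Pdcd4, an inhibitor of initiation (-0.84), were also lower on the deposited scale, with -0.57 and -0.43 after scaling (limma adjusted p 0.228 and 0.103). Sesn1, an upstream inhibitor of mTOR, rose from 21.4, 30.2 and 27.5 to 52.8, 45.9 and 69.6 TPM (1.05, limma adjusted p 0.0181; 1.45 after scaling, limma adjusted p 0.00532). Of these 4 genes Larp1, Larp4 and Sesn1 each missed the threshold without any of at least 3 of the libraries (limma adjusted p 0.0538 to 0.122), and Pdcd4 without induced library 1 (limma adjusted p 0.0531). Whether this list differed from the members was not tested.

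Of 17 genes of ribosome rescue and quality control, G3bp1 (-1.35), Pelo (-1.42) and Zfp598 (-1.07) were lower. The median of that list was -0.46, beside -0.35 for all genes. Of all tested genes 10.2% were lower and 1.29% higher, and 3.10% and 2.88% after scaling. After scaling G3bp1 alone of these 3 genes passed (-0.95, limma adjusted p 0.0144), and Pelo (-1.05, limma adjusted p 0.0935) and Zfp598 (-0.69, limma adjusted p 0.167) did not. On the deposited scale Pelo and Zfp598 missed the threshold without any of 5 and 4 of the libraries (limma adjusted p 0.0658 to 0.117). Otud3, a deubiquitinase, was higher, at 2.54, 1.74 and 1.85 against 8.66, 10.8 and 12.8 TPM (1.94, limma adjusted p 0.00617; 2.26 after scaling, limma adjusted p 0.00457). Of 7 tested genes linking ribosomal proteins to p53, Trp53 itself was lower, at 62.0, 63.3 and 43.4 against 24.0, 14.5 and 22.3 TPM (-1.44, limma adjusted p 0.00761; -1.04 after scaling, limma adjusted p 0.0224). No other gene of this list passed on either scale, and the list's median was 0.065 on the deposited scale.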

How the data were processed

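Gene-level TPM of the 6 libraries was deposited by the authors in 1 table, which also gives GC content in percent per the file headers. Per the submitters' processing notes, bcl2fastq, HISAT2, StringTie and DESeq2 were used with GRCm38; versions, annotation release and read filters are not given in the sources used here. RNA came from sorted cells and was made into stranded total-RNA libraries, per the labels' protocols. TPM keeps no depth, so no counting interval can be given. Rows were summed per gene ID (60496 rows, 55471 IDs).

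Tests were two-sided, by limma 3.58.1 in R 4.3.3 on log2(TPM + 1) with a variance trend, over the 13470 genes whose mean reached 1 TPM, adjusted by Benjamini-Hochberg at 0.05. Fold changes on this scale understate those of low genes. The fit was tested on simulated data. Shared sequence was counted as stretches of 100 bases of the GENCODE M21 transcripts, and a pseudogene was assigned to the member with which it shared most stretches of 31 bases, at 20% or more. M21 and RefSeq may differ from the authors' annotation.

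Members, gene lists and the naming rule were chosen with earlier results of these data known. Named members were, of those past the threshold without overlap, the 8 with the largest change each way, the paralogues and their partners, the 5 highest and 3 lowest, the stalk proteins, 10 members with roles in disease or signalling, and up to 3 with the largest change against the direction of the median, of which there were 2. In each support list up to 3 called genes each way were named, and Rack1 and Fau always. Some genes the rule names are not reported here, in the text or in figures that name genes, and stay in the counts. Other choices of scaling, filter, pseudocount, variance model, pairing and left-out library were tried.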

Additional observations from a re-analysis of the deposited data

How the results depend on the processing

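The number of ribosomal protein genes called lower, 48 of 82, was 17 without an expression filter and 8 after median-of-ratios scaling. It was 13 after quantile normalization, 16 after rescaling to nuclear protein-coding genes and 2 without a variance trend. Over all tested genes the lower calls in those fits, in order, were 656 of 23013, 418 of 13470, 440 of 13470, 451 of 10562 and 659 of 13470. For pseudogene family sums with median-of-ratios scaling, chosen after seeing the data, the members' count was 10, beside 429 of 13095 features. It was 12 to 46 when 1 library was left out, beside 527 to 1146 of all tested genes. None was called higher, against 2 after median-of-ratios scaling, 1 after quantile normalization, 2 after rescaling and 1 for scaled family sums. With a library left out it was 0 to 0. Over all tested genes 174 were called higher, and 388, 374, 435 and 387 in those scaled fits, in order. The members' median relative to all genes, -0.27, became -0.39 with a pseudocount of 5 and -0.48 without a filter, with -0.29 to -0.25 over left-out libraries, and kept its sign throughout. The difference in the share of nuclear protein-coding TPM was -2.13 to -1.85 percentage points over left-out libraries. For the support lists, 47 lower became 24 without a filter, 17 after median-of-ratios scaling, 17 after quantile normalization, 20 after rescaling and 15 without a trend, and 23 to 40 with a library left out. The 2 higher became 1 without a filter, 7 after rescaling and 1 without a trend, and 1 to 2 with a library left out. The cause of these moves was not tested.

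With the replicate number as a block, 23 members and 24 support genes were lower, where 782 of 13470 tested genes were. Same-numbered libraries did not deviate together (correlations across genes of 0.021, -0.015 and 0.017), and no label says that they are related.

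Members above 0 numbered 2 on the deposited scale, 19 after median-of-ratios scaling, 9 after quantile normalization and 19 after rescaling. Among the genes named by rule, signs that turned after median-of-ratios scaling, quantile normalization and rescaling, in that order, were those of Rpl11 (0.21, 0.11, 0.24), Rpl22 (0.28, 0.18, 0.31), Rpl22l1 (0.19, 0.18, 0.22) and Rps9 (0.17, 0.081, 0.19). After median-of-ratios scaling and rescaling only, they were those of Rpl38 (0.021, 0.050), Rpl5 (0.0095, 0.039), Rplp2 (0.016, 0.045) and Rps14 (0.00016, 0.030). Scaled family sums gave 0.23 for Rpl22, 0.12 for Rpl22l1, 0.0032 for Rpl5, 0.011 for Rplp2, 0.017 for Rps14 and 0.14 for Rps9. With a library left out, Rpl22 ran from -0.30 to 0.10, Fau from -0.11 to 0.16, and the log2 ratio of Rpl22l1 to Rpl22 ran from -0.44 to 0.14. The other ratios ran from -0.33 to -0.027 (Rpl36al), -0.35 to -0.038 (Rpl7l1), -1.45 to -0.85 (Rps27l) and 0.41 to 1.15 (Rps4l).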
